A study of Mus musculus with 23 samples.

Results

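The subunits of the transcription factor NF-κB and feedback genes that NF-κB itself induces were followed in bulk RNA-Seq of sorted mouse neutrophils. The set comprised 10 genes, chosen by symbol, of the 21878 genes listed for these libraries: the subunit genes *Nfkb1*, *Nfkb2*, *Rel*, *Rela* and *Relb*, and the feedback genes *Nfkbia*, *Nfkbie*, *Nfkbiz*, *Bcl3* and *Tnfaip3*. Neutrophils from BM, PB and perfused lung of WT mice gave 3 libraries each, here called the tissue comparison. Neutrophils from PB and lung of WT and *Piezo1*-cKO mice gave 2 libraries each, here called the Piezo1 experiment. The study's methods give mice of either sex, 7 to 12 weeks old. They name purchased C57BL/6J mice, but give no strain background for the *Piezo1*-cKO mice or their controls. *Piezo1*-cKO mice carried *Vav1-iCre* and *Piezo1* fl/fl, so Cre acted in all haematopoietic cells and not in neutrophils alone, and the labels call the controls WT without naming their alleles. All libraries came from CD45+CD11b+Ly6G+ cells, and the PB and lung suspensions, but not those of BM as far as the methods say, were first passed through a negative selection kit. The methods for tissue processing also give a digestion of lung with collagenase and DNase, and name none for PB or BM. The labels number the samples but do not tie them to animals, so p-values measure the spread between samples, whatever its source.

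In resting cells, NF-κB dimers are held in the cytoplasm by IκB proteins, which the IκB kinase complex marks for degradation when a cell is stimulated. The freed dimers enter the nucleus and induce, among many inflammatory genes, their own inhibitors and several of their own subunits, which makes the pathway a feedback loop. In neutrophils the pathway is known for the induction of chemokines, of IL-1 family cytokines and of survival genes after contact with microbes or cytokines.

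Positions are those of the mm10 assembly (GRCm38), which the labels name. *Rela* (NCBI gene 19697, chr19:5637442-5648134) encodes the main transactivating subunit of the classical pathway. *Rel* (19696, chr11:23736847-23770969) encodes c-Rel, a transactivating subunit prominent in blood cells. *Relb* (19698, chr7:19606217-19629438) encodes the transactivating subunit of the alternative pathway. *Nfkb1* (18033, chr3:135584655-135691969) and *Nfkb2* (18034, chr19:46300994-46312400) encode precursors that bind and hold other subunits until they are processed into the DNA-binding partners of the classical and the alternative pathway. *Nfkbia* (18035, chr12:55489409-55492647) and *Nfkbie* (18037, chr17:45555700-45563169) encode IκBα and IκBε, which hold dimers in the cytoplasm. *Nfkbiz* (80859, chr16:55811375-55838954) and *Bcl3* (12051, chr7:19808462-19822824) encode atypical IκB proteins that act in the nucleus. *Tnfaip3* (21929, chr10:19000910-19015410) encodes a ubiquitin-editing enzyme that switches off signalling above the IκB kinase complex.

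A first question was whether the promoters of these genes hold the sequence that NF-κB binds. RefSeq windows of 300 bases, 250 before and 50 after an annotated start, were searched on both strands for the 10-base κB consensus, and 7 of the 10 genes had at least 1 window. Of these 7 genes, 6 held a match: *Nfkb2*, *Rel*, *Nfkbia*, *Nfkbie*, *Bcl3* and *Tnfaip3*. Among all 27025 genes with a window 9.55% held one, and among the 6866 of these that were expressed in the sorted neutrophils 12.2% did. *Rela* had a window and no match, which says only that these letters are absent from that window, and *Nfkb1*, *Relb* and *Nfkbiz* had no window. More than 1 match was found for *Nfkb2*, *Rel* and *Tnfaip3*, against 1.42% of all genes with a window, although in *Rel* and *Nfkb2* matches overlap, shifted by 1 base. A match is a description of the letters and not evidence of binding. The 250 bases upstream of the start follow for *Nfkbia*, which had the highest level of the 10 genes, and for *Nfkbie* and *Tnfaip3*, which rose most from PB to lung, with the matches in capitals, 5′ to 3′ on the gene's strand.
*Nfkbia*, chr12:55492648-55492897, minus strand: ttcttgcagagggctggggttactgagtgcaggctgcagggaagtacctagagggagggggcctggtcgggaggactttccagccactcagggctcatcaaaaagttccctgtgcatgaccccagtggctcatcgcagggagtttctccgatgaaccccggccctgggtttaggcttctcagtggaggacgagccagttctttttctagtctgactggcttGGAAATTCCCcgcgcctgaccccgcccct
*Nfkbie*, chr17:45555450-45555699, plus strand: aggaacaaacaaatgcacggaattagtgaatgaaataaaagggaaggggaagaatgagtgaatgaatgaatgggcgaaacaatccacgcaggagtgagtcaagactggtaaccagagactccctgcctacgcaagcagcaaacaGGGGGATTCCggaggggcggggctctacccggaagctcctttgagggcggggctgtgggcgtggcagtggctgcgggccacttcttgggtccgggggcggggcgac
*Tnfaip3*, chr10:19015411-19015660, minus strand: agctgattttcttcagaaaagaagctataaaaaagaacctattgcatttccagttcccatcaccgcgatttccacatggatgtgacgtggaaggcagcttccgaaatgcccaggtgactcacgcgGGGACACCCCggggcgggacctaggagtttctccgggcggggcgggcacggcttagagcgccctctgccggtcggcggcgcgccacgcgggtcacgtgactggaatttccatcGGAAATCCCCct

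The *Nfkbia* match lay 20 to 29 bases before the start and read on the opposite strand. The *Nfkbie* match lay 97 to 106 bases before the start. *Tnfaip3* held one match at 116 to 125 bases and another at 3 to 12 bases before its start. The remaining matches are shown with 10 bases on either side, again with the match in capitals, to place the consensus in 2 subunit genes and in *Bcl3*.
*Rel*, chr11:23771042-23771071, minus strand: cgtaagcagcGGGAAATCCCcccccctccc
*Nfkb2*, chr19:46304688-46304717, plus strand: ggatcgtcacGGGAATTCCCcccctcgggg
*Nfkb2*, chr19:46304716-46304745, plus strand: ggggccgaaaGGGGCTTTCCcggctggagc
*Nfkb2*, chr19:46305449-46305478, plus strand: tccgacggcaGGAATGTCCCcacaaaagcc
*Nfkb2*, chr19:46305695-46305724, plus strand: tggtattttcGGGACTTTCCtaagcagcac
*Bcl3*, chr7:19822734-19822763, minus strand: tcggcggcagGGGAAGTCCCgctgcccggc

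The overlapping matches, shifted by 1 base, in *Rel* and in the first *Nfkb2* sequence are not shown again. The third *Nfkb2* match lay at bases -236 to -227 relative to a start, the farthest of those shown. The last *Nfkb2* sequence lies after one annotated start of the gene and before another. In *Bcl3* the match began 3 bases after the start.

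In the tissue comparison the 10 genes took 0.0943% to 0.0963% of reads on genes in the BM libraries, 0.324% to 0.410% in PB and 1.60% to 1.63% in lung. Levels are in FPKM, fragments per kilobase of transcript scaled to library size, so genes can be compared per length. *Nfkbia* ranked first of the 10 genes in BM, PB and lung alike. At the low end the order changed: *Tnfaip3* was the lowest in BM at 5.81 ± 0.465 FPKM (SD, n = 3) and the third highest in lung at 739.9 ± 12.3 FPKM, whereas *Nfkb1* stood at rank 4 in BM and was the lowest in lung. Some neighbours in these orders did not separate: *Nfkb1* and *Rela* overlapped in BM, as did *Relb* and *Tnfaip3*, *Tnfaip3* overlapped *Rela* in PB and *Nfkb1* overlapped *Nfkb2* there, and in lung *Bcl3* overlapped *Nfkb2* and *Rel* overlapped *Relb*. In bulk RNA, fewer cells expressing a gene and less RNA per cell cannot be told apart.

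**Figure D1:**
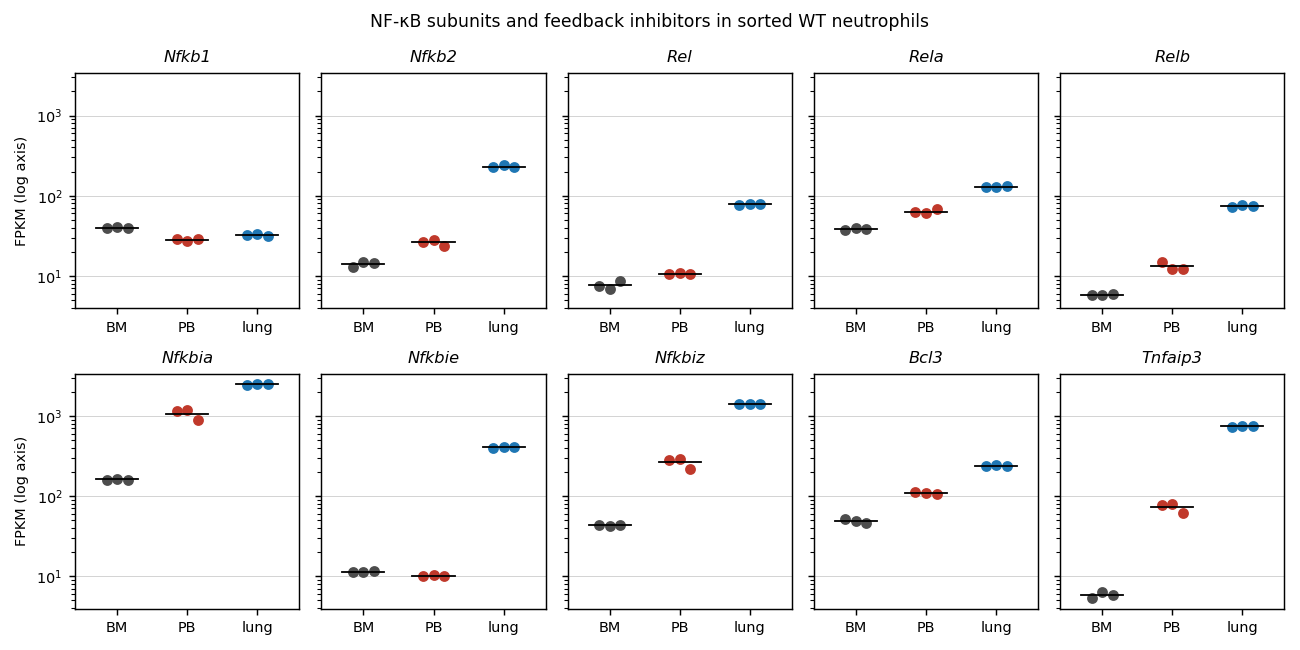
FPKM of the 10 genes (log axis) in each of 3 BM, 3 PB and 3 lung libraries of sorted WT neutrophils; points are libraries and black lines are group means. Lung points lie above all BM and PB points for 9 genes, and *Nfkb1* spans only 27.6 to 40.2 FPKM over the 9 libraries. The share of all genes that separate was not computed.

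Lung neutrophils were compared with PB neutrophils to ask which of these genes differ between circulating cells and cells taken from perfused lung. Tissue and the digestion of lung cannot be told apart in this comparison. Differences are in log2(FPKM + 1) and were tested with limma over all genes that passed a filter on low FPKM, and a gene was called at a Benjamini-Hochberg adjusted p below 0.05 and an absolute difference above 1. Of the 10 genes, 9 rose in lung, all but *Nfkb1*, and none fell. Over all 7577 genes tested, 7.75% were called higher and 19.5% lower in lung. The median gene differed by -0.54 in lung minus PB, by -0.70 in lung minus BM and by -0.12 in PB minus BM. Relative to the median gene the members in lung minus PB lay between 0.73 (*Nfkb1*) and 5.73 (*Nfkbie*).

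Among the subunits, *Nfkb2* was at 227, 228 and 238 FPKM in lung and at 23.5, 26.6 and 28.3 FPKM in PB. The groups did not overlap, and the 8.85-fold rise, a difference of 3.10 ± 0.07 (SE), had an adjusted p of 1.1e-08 in limma. *Rel* was at 77.2, 77.9 and 79.5 FPKM in lung against 10.5, 10.5 and 10.9 FPKM in PB, a 7.35-fold rise. *Relb* was at 71.7, 73.9 and 77.5 FPKM in lung against 12.1, 12.3 and 14.9 FPKM in PB, a 5.68-fold rise. The 3 inducible subunit genes thus stood far outside the spread of the replicates. *Rela* was at 127, 128 and 132 FPKM in lung and 60.7, 61.9 and 67.6 FPKM in PB, a 2.03-fold difference of 1.01 ± 0.06 that lay at the threshold: without PB replicate 1, PB replicate 2 or lung replicate 3 it was 1.00, 0.98 and 1.00, just under it, with the adjusted p still at most 2.8e-05. After rescaling by the median ratio it was 1.60, with edgeR 1.65 and with DESeq2 1.67. *Nfkb1* was at 31.7, 32.6 and 33.3 FPKM in lung and 27.6, 28.5 and 28.8 FPKM in PB. The libraries did not overlap, but the difference of 0.19 ± 0.05 (limma adjusted p = 0.0069) was not called, and it was 0.77 after rescaling by the median ratio, 0.82 with edgeR and 0.84 with DESeq2 on recovered reads, still under the fold threshold.

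Among the feedback genes, *Nfkbie* differed most. It was at 400.3, 406 and 409.6 FPKM in lung and at 9.95, 10.1 and 10.3 FPKM in PB, a 40.1-fold rise of 5.19 ± 0.05 (limma adjusted p = 5.7e-10), and it ranked 11 among all tested genes by the size of its rise. *Tnfaip3* was at 726, 743 and 751 FPKM in lung against 61.4, 77.8 and 80.5 FPKM in PB, a 10.1-fold rise, and ranked 61. *Nfkbiz* was at 1405, 1423 and 1424 FPKM in lung against 219.8, 279.8 and 293 FPKM in PB, a 5.37-fold rise. These genes hence combined high absolute levels with large differences. *Bcl3* was at 234, 240.0 and 241 FPKM in lung against 106, 109 and 113 FPKM in PB, a 2.18-fold rise. *Nfkbia* was at 2447, 2475 and 2479 FPKM in lung against 883, 1134 and 1190.0 FPKM in PB, a 2.31-fold rise of 1.22 ± 0.11 (limma adjusted p = 1.4e-05). PB replicate 3 was the lowest PB library for *Nfkbia*, *Nfkbiz*, *Tnfaip3*, *Nfkb2* and *Bcl3*, and without it the same 9 genes were called.

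BM neutrophils, the cells before release, were compared next. Lung minus BM was called higher for 9 genes and lower for none, against 9.86% higher and 36.0% lower of 8236 genes tested. *Tnfaip3* gave the largest difference of the 10 genes, 6.77 ± 0.05 or 127-fold, and it was at 5.33, 5.84 and 6.26 FPKM in BM. *Nfkbie* (35.8-fold) and *Nfkbiz* (32.7-fold) followed, then *Nfkb2* (16.3-fold), *Nfkbia* (15.3-fold), *Relb* (12.8-fold), *Rel* (10.2-fold), *Bcl3* (4.88-fold) and *Rela* (3.34-fold). In none of these 9 genes did a BM library reach a lung library, but the share of all genes that separate in this way was not computed. *Nfkb1* was at 39.1, 39.5 and 40.2 FPKM in BM, above all lung libraries, with a lung minus BM difference of -0.28 ± 0.03 in FPKM that turned to 0.37 when FPKM were rescaled by the median ratio, so that no direction is given for it.

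PB minus BM separated the genes. Of the 10, 5 rose in PB, against 7.85% of 8237 genes tested, and none fell, against 14.1%: *Tnfaip3* by 3.44 ± 0.11, *Nfkbia* by 2.71 ± 0.11, *Nfkbiz* by 2.57 ± 0.10, *Bcl3* by 1.14 ± 0.06 and *Relb* by 1.04 ± 0.09. *Relb* passed the fold threshold narrowly and was at 0.95 without PB replicate 1. By rank of rise among all genes tested, *Tnfaip3* stood at 13, *Nfkbia* at 35 and *Nfkbiz* at 41. *Nfkb2* (0.84 ± 0.09), *Rela* (0.70 ± 0.06) and *Rel* (0.44 ± 0.08) were higher in every PB library than in every BM library without passing the fold threshold. *Nfkb1* (-0.47 ± 0.05) and *Nfkbie* (-0.15 ± 0.06) were lower in every PB library, also under the threshold. By adjusted p alone all 10 genes passed, against 73.1% of genes tested, but *Nfkbie* did not pass after rescaling by the median ratio (-0.09), in edgeR (-0.06) or in DESeq2 (-0.04, adjusted p = 0.68), nor without any 1 of the 5 libraries other than PB replicate 3.

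The 2 inhibitors of one family therefore took different steps. *Nfkbie* did not rise from BM to PB, at 11.2, 11.3 and 11.5 FPKM in BM, and its whole lung minus BM difference of 5.04 lay between PB and lung. For *Nfkbia*, 69.0% of the lung minus BM difference lay between BM and PB. *Tnfaip3* (50.8%), *Nfkbiz* (51.4%) and *Bcl3* (50.5%) split about evenly, and for *Rel*, *Nfkb2* and *Relb* 13.6%, 21.3% and 30.0% of the difference lay between BM and PB. These shares are descriptions, since both steps use the same PB libraries.

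**Figure D2:**
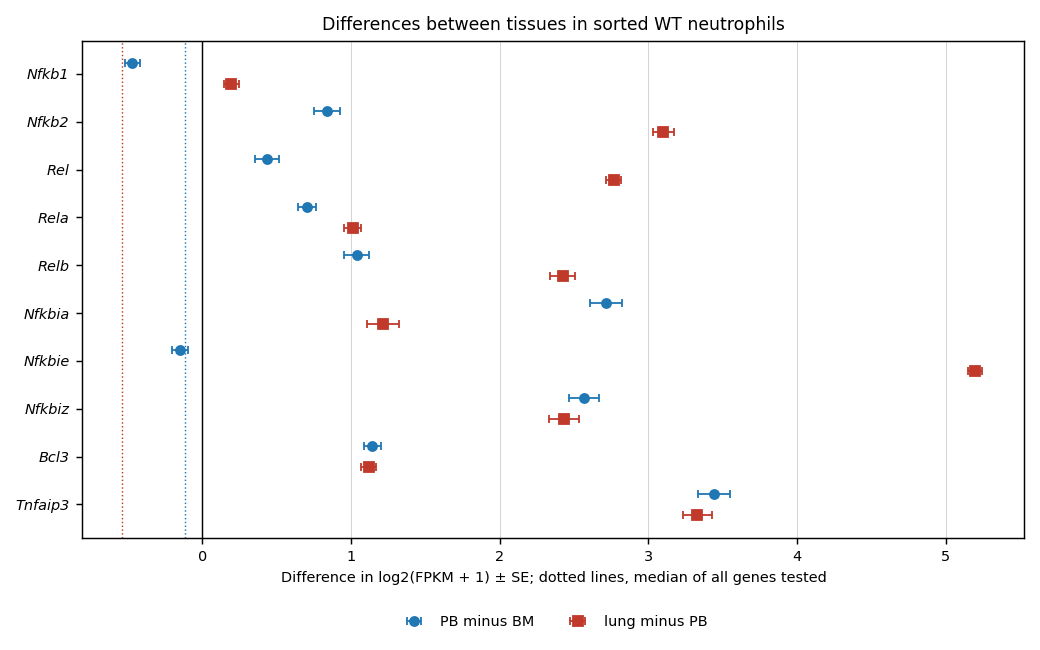
Difference in log2(FPKM + 1) ± SE for PB minus BM and lung minus PB, per gene, with 3 libraries a group; dotted lines mark the median of all genes tested. *Nfkbie* is near 0 from BM to PB and at 5.19 from PB to lung, *Nfkbia* shows the reverse order with 2.71 and 1.22, and *Tnfaip3* is above 3 in both.

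The makeup of the subunit pool differed as well, as a sum of FPKM over the 5 subunit genes. The sum was 103 to 108 FPKM in BM, 139 to 143 FPKM in PB and 536 to 555 FPKM in lung. *Nfkb1* made up 36.7% to 38.4% of this sum in BM, 19.8% to 20.2% in PB and 5.82% to 6.09% in lung. *Nfkb2* made up 12.5% to 14.0% in BM and 41.8% to 42.9% in lung, so the ratio of *Nfkb2* to *Nfkb1* was 0.326 to 0.375 in BM, 0.817 to 1.03 in PB and 6.98 to 7.18 in lung. *Rela* held 36.1% to 37.0% of the BM sum, 43.5% to 47.3% of the PB sum and 23.1% to 24.2% of that in lung. The sum over the 5 feedback genes was 2.49 to 2.64 times the subunit sum in BM, 8.96 to 12.1 times in PB and 9.53 to 9.74 times in lung, so that in these libraries the ratio separated BM from the other tissues but not PB from lung. This sum joins cytoplasmic IκB genes with the nuclear, inhibitor-like *Nfkbiz* and *Bcl3* and with *Tnfaip3*, so it is not a measure of inhibition. The ratio of *Nfkbia* to *Rela*, the inhibitor to its main target, likewise was 4.11 to 4.28 in BM, 13.1 to 19.6 in PB and 18.8 to 19.4 in lung. Transcript ratios are not protein ratios.

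For the 3 genes with the widest range between tissue means, the genes with the most similar profile were sought among 5108 genes with a mean of at least 5 FPKM, by Euclidean distance of centred log2(FPKM + 1) over the 9 libraries. For *Tnfaip3* these were *Nr4a1*, *Ptgs2* and *Ppp1r15a*, at distances of 0.875, 0.878 and 1.11. For *Nfkbie* they were *Rabgef1* (0.258), *Traf1* (0.541) and *Fosl1* (0.603). For *Nfkbiz* they were *Plk3* (0.250), *Ets2* (0.485) and *Ccl4* (0.610). *Rabgef1*, the nearest gene to *Nfkbie*, was at 8.27, 7.94 and 298 FPKM in BM, PB and lung on average, a profile with the same flat first step.

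The rest of the pathway was read from lists of genes, in lung minus PB beside the 7.75% of all genes called higher and 19.5% lower. Of 14 tested other inhibitors and negative regulators, 5 rose and none fell in lung minus PB, with a list median of 0.42 against -0.54 for all genes. They included *Nfkbib*, encoding IκBβ (2.82 ± 0.07, 81.2 against 10.6 FPKM), *Nfkbid*, an atypical nuclear IκB (2.52 ± 0.09), *Zc3h12a*, an RNase that degrades inflammatory mRNA (2.48 ± 0.12), and *Cyld*, a deubiquitinase (1.15 ± 0.07). Of 13 genes of the IκB kinase complex and the kinases above it, 2 rose and 2 fell. *Ikbke* (2.56 ± 0.08) and *Tbk1* (1.44 ± 0.09), the noncanonical IκB kinases, were the 2 that rose, and *Ripk1*, a kinase of the TNF receptor complex, fell by 1.26 ± 0.08. Of 19 adaptors and ubiquitin ligases, 5 rose and 6 fell, among them *Irak2* (2.80 ± 0.07), *Birc3* (2.35 ± 0.06) and *Malt1* (2.00 ± 0.09) upward and *Irak4* (-1.62 ± 0.05) downward. Of 23 tested NF-κB target genes, of 26 listed, 20 rose and 1 fell, with a median of 2.89, and the largest rises were those of the chemokine genes *Cxcl3* (8.23 ± 0.22) and *Cxcl1* (6.40 ± 0.13), of *Il1a* (5.81 ± 0.07) and of *Traf1* (4.76 ± 0.07). *Cxcl1*, *Il1a*, *Traf1* and *Ikbke* averaged 0.419, 0.0553, 0.148 and 0.591 FPKM in PB. They passed the filter only through the lung libraries, which fixed their direction, so the target count and median are descriptions. Chosen after their values were seen, the target gene that fell was *Irf1*, an interferon-response factor (-1.59 ± 0.05), the second kinase-list gene that fell was *Tab1* (-1.02 ± 0.11), and the fifth inhibitor that rose was *Tnip1*, encoding a partner of the *Tnfaip3* product (1.14 ± 0.09). Thus the inhibitor, kinase (median -0.28) and target lists had medians above that of all genes, whereas the adaptor list, with a median of -0.63, had not.

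Lung minus BM gave 7 other inhibitors higher and 0 lower of 14, 1 kinase higher and 3 lower of 13, 4 adaptors higher and 3 lower of 19, and 21 target genes higher and 2 lower of 24. Over all genes tested, 9.86% were called higher and 36.0% lower. *Cxcl3* and *Cxcl1* averaged 0.158 and 0.0552 FPKM in BM and passed the filter only through the lung libraries. The adaptor gene *Ticam1*, at 0.389 FPKM in lung, passed only through BM. The filter fixed the direction of such genes, so the target count is again a description. *Cxcl2*, a neutrophil chemoattractant, was at 10911 ± 330 FPKM in lung (SD, n = 3) and 24.1 ± 0.974 FPKM in BM. PB minus BM gave 3 other inhibitors higher and none lower of 14, 1 gene each way in the kinase list of 13 and in the adaptor list of 19, and 11 target genes higher and 2 lower of 18. Over all genes tested there, 7.85% were called higher and 14.1% lower, so the kinase and adaptor counts do not stand out. In that step *Cxcl2* (4.91 ± 0.16), *Il1b* (4.23 ± 0.06) and *Ptgs2* (4.06 ± 0.09) rose, and *Myd88*, the adaptor of most Toll-like receptors, rose by 1.37 ± 0.05.

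The neutrophil label was checked with marker genes. All 10 neutrophil markers reached 1 FPKM in every group, with *S100a8* at 18028 FPKM or more in each library, and *Ly6g* was at 760.4 to 781 FPKM in BM, 92.4 to 116 FPKM in PB and 53.0 to 55.7 FPKM in lung. None of 6 dendritic cell, 5 B cell or 5 eosinophil, basophil and mast cell markers reached 1 FPKM in any group. The T cell marker *Cd3d* and the endothelial marker *Pecam1* reached 1 FPKM in each group. The 8 T and NK cell markers summed to at most 6.67 FPKM (BM) and the 5 endothelial markers to at most 3.38 FPKM (*Piezo1*-cKO PB). The 4 platelet markers summed to at most 3.69 FPKM (*Piezo1*-cKO lung). The 11 monocyte and macrophage markers summed to 70.2 to 75.6 FPKM in BM, 175 to 189.7 FPKM in PB and 138 to 139.8 FPKM in lung, most of it *Csf1r*. Single markers did not all follow this sum: 7 of the 11 reached 1 FPKM in BM, 3 in PB and 4 in lung. The macrophage markers *C1qa*, *C1qb* and *C1qc* were highest in BM, at 3.23 to 6.58 FPKM. They were at most 0.0522 FPKM in PB and 1.10 FPKM in lung. The 5 epithelial markers summed to at most 2.49 FPKM in lung and 0.580 FPKM in BM of the tissue comparison, and to 3.35 to 6.46 FPKM in lung of the Piezo1 experiment, with 1 of the 5 at 1 FPKM or more. The 12 genes that respond to tissue dissociation and handling, *Fos* and *Atf3* among them, were called higher in PB than in BM for all 12 (median 2.60). Lung minus BM gave 9 higher and 0 lower (median 1.85), and lung minus PB 2 higher and 3 lower (median -0.51). Their part in the PB minus BM and lung minus BM rises of *Tnfaip3*, *Nfkbia* and *Nfkbiz* was not tested. Nor was the part of lung digestion in the lung minus PB and lung minus BM differences tested. The libraries of BM, PB and lung held 16502153 to 19330794 reads on genes and those with both genotypes 9621088 to 15034742, and the lowest count behind a value of the 10 genes was 116 reads, for *Rel* in a *Piezo1*-cKO PB library.

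The Piezo1 experiment asked whether the mechanosensitive channel PIEZO1 bears on these levels. *Piezo1* itself was too low to check the genotype: the WT libraries held 5 and 5 reads in PB and 8 and 8 in lung, and the *Piezo1*-cKO libraries 3 and 10 in PB and 7 and 4 in lung. Whole-gene reads also cannot show a deletion of a few exons. Groups are therefore named by their labels.

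**Figure D3:**
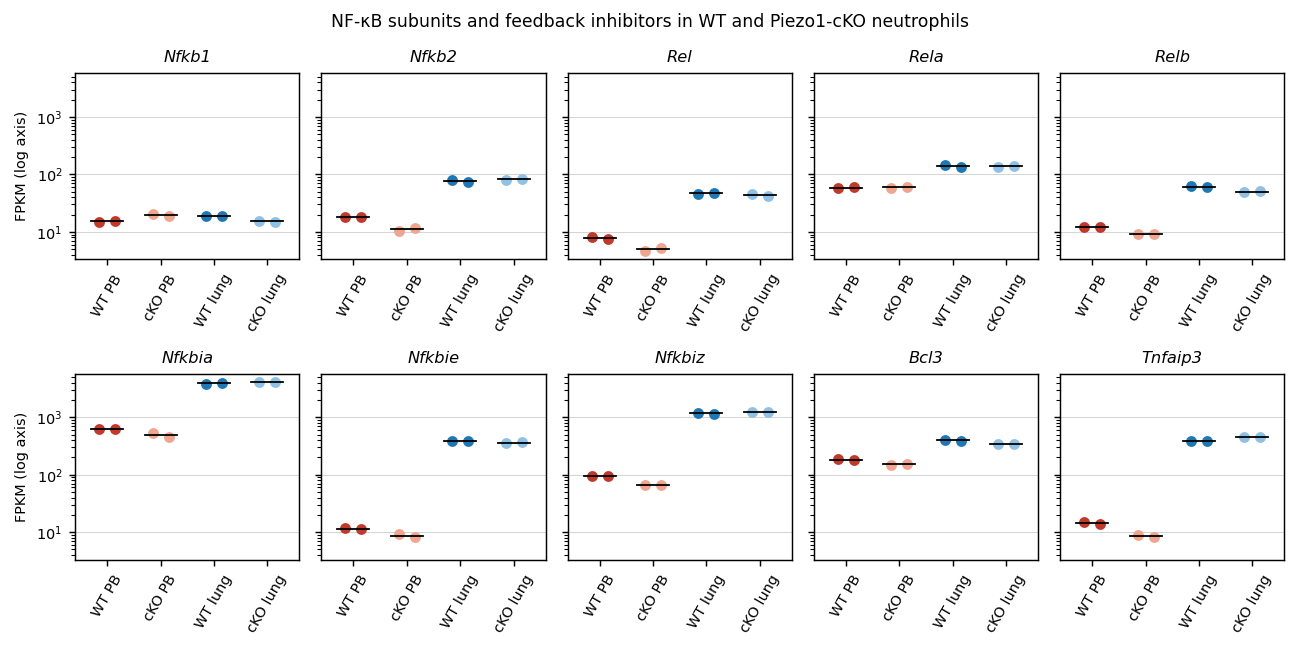
FPKM of the 10 genes (log axis) in 2 libraries each of WT PB, *Piezo1*-cKO PB, WT lung and *Piezo1*-cKO lung neutrophils; points are libraries and black lines are group means. The step from PB to lung is present in both genotypes for 9 genes, and WT and *Piezo1*-cKO points of the same tissue overlap for *Rela* only, in PB and in lung. The share of all genes that separate was not computed.

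WT lung minus WT PB in this experiment called the same 9 genes higher, and none lower, against 7.50% of 7143 genes called higher and 26.5% lower. In *Piezo1*-cKO mice lung minus PB again called these 9 higher and none lower, against 7.93% and 23.0% of 7163 genes. *Nfkbie* was at 383 and 386 FPKM in WT lung against 11.2 and 12.0 FPKM in WT PB, a 33.2-fold rise. In *Piezo1*-cKO mice it was at 357 and 364 FPKM in lung against 8.20 and 9.17 FPKM in PB, a 41.5-fold rise. *Tnfaip3* was at 384 and 385 FPKM in WT lung and 14.0 and 15.1 FPKM in WT PB, a 26.5-fold rise. The *Piezo1*-cKO libraries stood at 450.3 and 462 FPKM in lung and at 8.33 and 8.99 FPKM in PB, a 52.7-fold rise. *Nfkbiz* rose 12.3-fold in WT and 18.7-fold in *Piezo1*-cKO mice. In the 4 groups no lung library of these feedback genes came near a PB library.

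The size of the step varied between the experiments for several genes. The lung minus PB difference of *Nfkbia* was 1.22 in the tissue comparison, 2.64 in WT and 3.06 in *Piezo1*-cKO mice, and *Nfkbiz* gave 2.43, 3.61 and 4.21. *Tnfaip3* gave 3.33, 4.63 and 5.56. The PB level of *Tnfaip3* was 61.4 to 80.5 FPKM in the tissue comparison and 14.0 to 15.1 FPKM in WT mice of the Piezo1 experiment, and that of *Nfkbiz* was 219.8 to 293 against 94.7 to 95.4 FPKM. *Nfkb2* was lower in lung here, at 74.4 and 78.9 FPKM in WT, than the 227 to 238 FPKM of the tissue comparison, and its lung minus PB difference was 3.10, 2.02 and 2.79 in the same order. *Rela*, *Bcl3* and *Relb* gave close values in the 3 sets, with *Bcl3* at 1.12, 1.15 and 1.18 although its PB level in the tissue comparison was above that of *Tnfaip3*. The experiments were not tested against each other, and experiment and library preparation cannot be told apart.

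**Figure D4:**
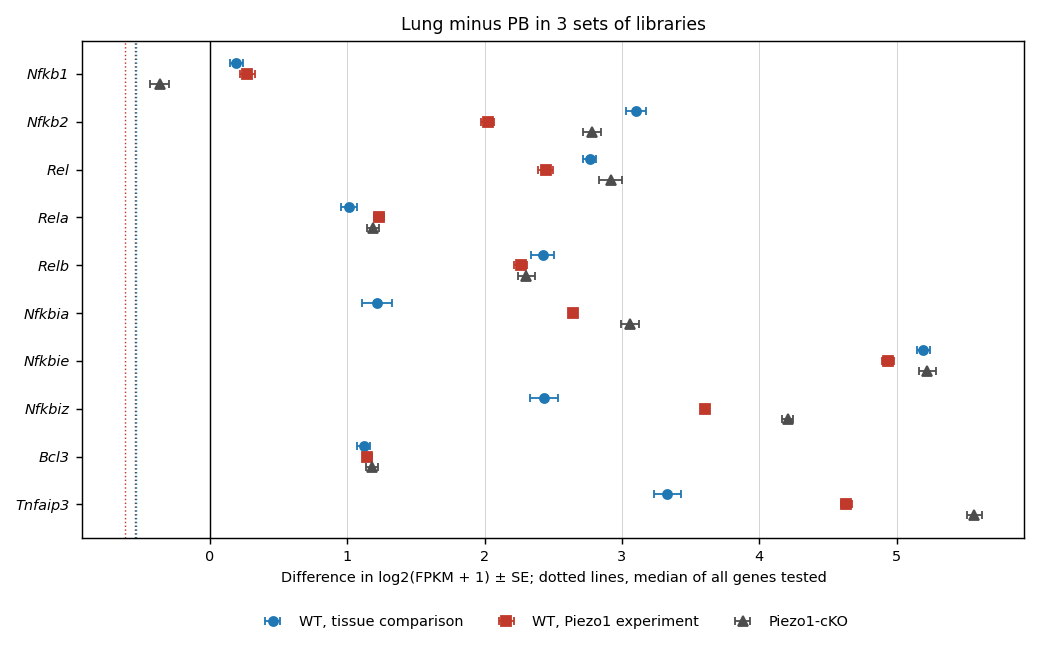
Lung minus PB in log2(FPKM + 1) ± SE for the WT mice of the tissue comparison (3 libraries a group), the WT mice of the Piezo1 experiment and the *Piezo1*-cKO mice (2 libraries a group); dotted lines mark the median of all genes tested. *Nfkbie* stays between 4.94 and 5.22, while *Nfkbia*, *Nfkbiz* and *Tnfaip3* are larger in the Piezo1 experiment.

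*Nfkb1* was at 18.5 and 19.1 FPKM in WT lung against 15.1 and 15.8 FPKM in WT PB, a difference of 0.27 ± 0.06 that was not called in FPKM and stood at 1.01 with edgeR and 1.03 with DESeq2 on recovered reads, just past the threshold. In *Piezo1*-cKO mice it was at 14.9 and 15.6 FPKM in lung against 19.2 and 20.7 FPKM in PB, a difference of -0.37 ± 0.07 that turned to 0.19 after rescaling by the median ratio.

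The subunit pool of the Piezo1 experiment also differed between tissues. In PB the ratio of *Nfkb2* to *Nfkb1* in FPKM was 1.14 and 1.21 for WT and 0.508 and 0.605 for *Piezo1*-cKO mice. In lung it was 3.89 and 4.25 in WT and 5.20 and 5.57 in *Piezo1*-cKO mice, so that the order of the genotypes was opposite in the 2 tissues. The sum over the 5 feedback genes was 8.13 and 8.35 times the subunit sum in PB and 17.7 and 18.6 times in lung of WT mice, and 6.54 and 7.26 against 19.6 and 19.9 times in *Piezo1*-cKO mice, so that here the ratio did separate PB from lung. The ratio of *Nfkbia* to *Rela* likewise was 10.4 and 10.7 in PB and 26.6 and 29.1 in lung of WT mice. Of reads on genes in PB, the 10 genes took 0.214% and 0.215% for WT and 0.168% and 0.177% for *Piezo1*-cKO mice. In lung they took 1.53% in both WT libraries and 1.59% and 1.61% in those of *Piezo1*-cKO mice.

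WT minus *Piezo1*-cKO in lung called 0 of the 10 genes by adjusted p and fold in limma, and edgeR and DESeq2 on recovered reads also called 0. At an unadjusted p below 0.05, 8 genes passed in limma, 8 in edgeR and 7 in DESeq2. The share of all genes at that cut-off was not computed, and in limma it cannot be below the 50.7% that passed by adjusted p. Over all 6434 genes tested, 0.995% were called. By adjusted p alone 7 genes passed, against 50.7% of all genes, so that this count is close to the background. *Relb* was at 60.4 and 62.6 FPKM in WT and 48.7 and 50.9 FPKM in *Piezo1*-cKO lung, a difference of 0.30 ± 0.04 (limma adjusted p = 0.0014). *Nfkb1* (0.29 ± 0.06) and *Bcl3* (0.21 ± 0.03, 394 and 409 against 346 and 346 FPKM) were also higher in WT. *Tnfaip3* was lower in WT, at 384 and 385 against 450.3 and 462 FPKM, a difference of -0.24 ± 0.02 (limma adjusted p = 3.0e-04). These 4 genes kept an adjusted p of at most 0.034 under each alternative run. *Nfkbie* (0.09 ± 0.02), *Nfkbia* (-0.07 ± 0.02) and *Nfkbiz* (-0.09 ± 0.02) passed in limma but not under each alternative, and *Nfkbia* and *Nfkbiz* changed sign under rescaling, edgeR and DESeq2. *Nfkb2*, *Rel* and *Rela* gave adjusted p of 0.076, 0.18 and 0.76 in limma. *Rel* and *Rela* passed after rescaling by the median ratio (0.19 and 0.11), in edgeR (0.21 and 0.13) and in DESeq2 (0.21 and 0.13), *Rel* also without *Piezo1*-cKO lung replicate 1 (0.16), and *Nfkb2* without WT lung replicate 1 (-0.14). Relative to the median gene, at -0.09, the 10 genes lay between -0.15 and 0.39. Marker sums also differed between these lung libraries without overlap. The 10 neutrophil markers summed to 90916 to 94319 FPKM in WT and 69643 to 74025 FPKM in *Piezo1*-cKO lung, the 12 handling genes to 21322 to 21517 against 18817 to 19074 FPKM, and the 11 monocyte and macrophage markers to 133 to 135 against 164 to 167 FPKM. Their part in the lung differences was not tested.

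WT minus *Piezo1*-cKO in PB called 0 of the 10 genes by adjusted p and fold, with limma, edgeR or DESeq2, against 3.65% of 7256 genes, and 9 genes had an unadjusted p below 0.05 in each tool. The share of all genes at that unadjusted cut-off was not computed, so the count of 9 cannot be set against it. In limma that share cannot be below the 23.2% higher and 26.5% lower that passed by adjusted p. By adjusted p alone 9 passed, 8 higher in WT against 23.2% of genes higher, and 1 lower against 26.5%. *Tnfaip3* was at 14.0 and 15.1 FPKM in WT and 8.33 and 8.99 FPKM in *Piezo1*-cKO PB, a 1.68-fold difference of 0.69 ± 0.08 (limma adjusted p = 8.0e-04). *Nfkb2* was at 17.9 and 18.2 against 10.5 and 11.6 FPKM, a 1.63-fold difference. *Rel* was at 7.58 and 8.04 against 4.67 and 5.22 FPKM, a 1.58-fold difference, and *Nfkbiz* at 94.7 and 95.4 against 66.4 and 66.6 FPKM, a 1.43-fold difference. Among the 10 genes, separation of the libraries was not limited to those just named. In PB both WT libraries lay above both *Piezo1*-cKO libraries in 8 genes and below them in 1. In lung they lay above in 5 genes and below in 4. The share of all genes without overlap was not computed. *Nfkbie* (0.38 ± 0.08), *Nfkbia* (0.34 ± 0.06), *Relb* (0.34 ± 0.07) and *Bcl3* (0.25 ± 0.05) were higher in WT by less, and *Bcl3* did not pass without WT PB replicate 1 (0.22, limma adjusted p = 0.060). *Nfkb1* was the exception, at 15.1 and 15.8 FPKM in WT and 19.2 and 20.7 FPKM in *Piezo1*-cKO PB (-0.35 ± 0.07, limma adjusted p = 0.0061). *Rela* overlapped between the genotypes, at 57.9 and 59.7 against 59.0 and 61.3 FPKM.

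The *Piezo1*-cKO PB libraries also held more erythroid transcripts. The 6 erythroid markers summed to 1011 to 1136 FPKM there, against 24.8 to 26.7 FPKM in WT PB and at most 5.12 FPKM in lung, with *Hbb-bs* at 338 to 408 FPKM in the *Piezo1*-cKO PB libraries. The 12 handling genes summed to 22441 to 22707 FPKM in WT and to 19641 to 20557 FPKM in *Piezo1*-cKO PB, and 0 of the 11 tested were called, with a median of 0.19. The part of either in the PB differences was not tested.

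**Figure D5:**
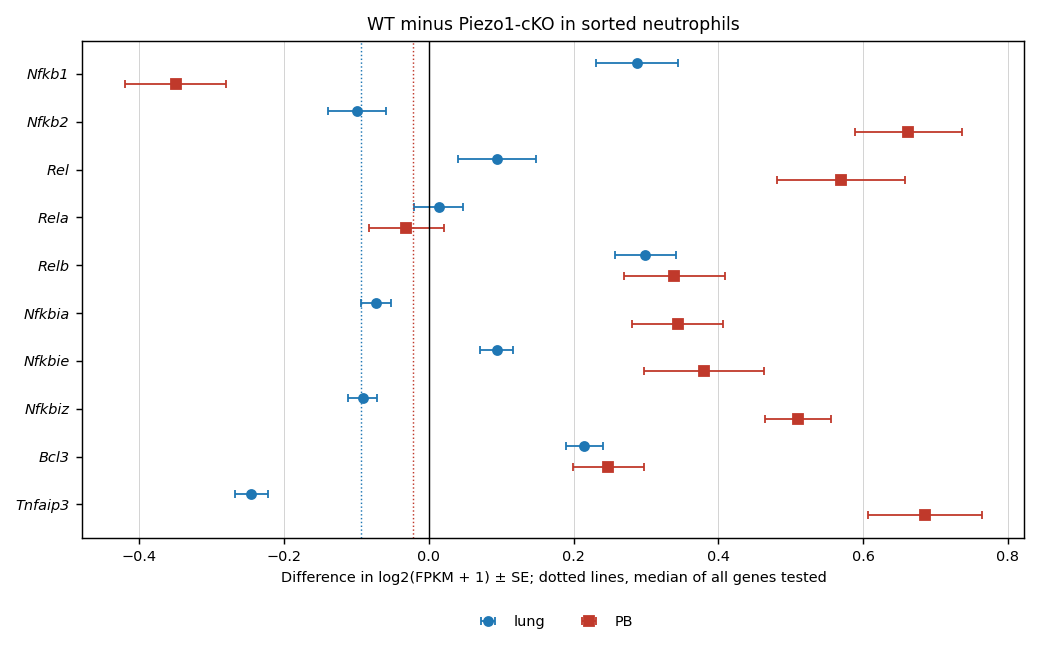
WT minus *Piezo1*-cKO in log2(FPKM + 1) ± SE in lung and in PB, with 2 libraries a group; dotted lines mark the median of all genes tested. In PB 8 genes lie above 0, *Nfkb1* below and *Rela* at -0.03, while in lung all 10 genes lie between -0.24 and 0.30.

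Whether the genotype difference itself differed between lung and PB was tested with an interaction term over all 8 libraries. At an adjusted p below 0.05 in limma, 7 of the 10 genes passed, against 48.2% of 7560 genes. In 1 gene the signed WT minus *Piezo1*-cKO difference was larger in lung, against 18.5% of genes, and in 6 it was larger in PB, against 29.7%. *Tnfaip3* gave -0.93 ± 0.07 (adjusted p = 5.7e-05), higher in WT in PB and lower in WT in lung. *Nfkb2* gave -0.76 ± 0.08, *Nfkbiz* -0.60 ± 0.04, *Rel* -0.47 ± 0.10 and *Nfkbia* -0.42 ± 0.07. *Nfkb1* went the other way with 0.64 ± 0.08 (adjusted p = 5.5e-04), lower in WT in PB and higher in WT in lung. *Nfkbie* (-0.29 ± 0.08, adjusted p = 0.015) did not pass after rescaling by the median ratio (-0.20) or without WT PB replicate 1 (-0.24), WT lung replicate 2 (-0.28) or *Piezo1*-cKO lung replicate 2 (-0.27). *Rela*, *Relb* and *Bcl3* gave 0.04 ± 0.06, -0.04 ± 0.07 and -0.03 ± 0.06. None of the 10 terms exceeded 1 in size. The interaction, the genotype differences and the lung minus PB differences share libraries and are not independent of each other.

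Of the rest of the pathway, few genes were called between genotypes within a tissue. In lung 0 of the genes tested in the 4 lists were called by adjusted p and fold in limma, and by adjusted p alone 12 of 23 target genes were higher and 6 lower in WT, where 50.7% of all genes passed. In PB *Cxcl2* (934 ± 13.2 against 337 ± 1.87 FPKM, SD, n = 2; a difference of 1.47 ± 0.04) and *Ptgs2* (71.9 ± 1.07 against 27.2 ± 3.04 FPKM; 1.37 ± 0.08) were higher in WT. With *Cxcl3* (1.53 ± 0.13), which stayed at or below 3.51 FPKM on average, they were the 3 of 17 tested target genes that were called, with a list median of 0.35 against -0.02 for all genes. *Cxcl3* averaged 0.565 FPKM in *Piezo1*-cKO PB and passed the filter only through the WT libraries, which fixed its direction. *Tab1*, a partner of a kinase above the IκB kinase complex, was the 1 kinase-list gene called of 11, and it was lower in WT (1.43 ± 0.198 against 6.28 ± 0.660 FPKM). No other inhibitor of 14 and no adaptor of 19 was called in PB, where 3.65% of all genes were called. Lung minus PB called 7.50% of all genes tested higher and 26.5% lower in WT mice, and 7.93% and 23.0% in *Piezo1*-cKO mice. Of the target genes it called 21 higher and 1 lower of 23 in WT mice, and 22 higher and 1 lower of 23 in *Piezo1*-cKO mice. The lower one was *Irf1* in both, at -2.02 ± 0.03 and -1.49 ± 0.04. *Cxcl1* and *Il1a* averaged 0.413 and 0.101 FPKM in WT PB, and 0 and 0.390 FPKM in *Piezo1*-cKO PB. They passed the filter only through the lung libraries, which fixed their direction, so these target counts are descriptions. *Cxcl2* was at 10473 ± 276 FPKM (SD, n = 2) in *Piezo1*-cKO lung. In both genotypes *Nfkbid* (2.80 and 3.52) and *Nfkbib* (3.37 and 3.09) rose among the other inhibitors, of which 4 rose and 3 fell of 14 in WT and 4 rose and 1 fell of 13 in *Piezo1*-cKO mice. Chosen after their values were seen, those that fell were *Itch* (-1.36 ± 0.07), *Pdlim2* (-1.01 ± 0.04) and *Tnip2* (-1.06 ± 0.06) in WT and *Otulin* (-1.09 ± 0.07) in *Piezo1*-cKO mice. The kinase-list gene *Ripk1* fell by 1.30 in WT and by 1.04 in *Piezo1*-cKO mice. At an adjusted p below 0.05 in limma, the interaction term was higher for 3 and lower for 11 of 23 target genes. It was higher for 4 and lower for 5 of 14 other inhibitors, 4 and 3 of 13 kinases, and 5 and 5 of 19 adaptors. Of 11 tested handling genes, 0 were higher and 5 lower. Over all genes tested, 18.5% were higher and 29.7% lower.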

How the data were processed

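Bulk RNA-Seq of 17 libraries of sorted neutrophils was analysed, and the whole-lung libraries of the series were not used here. The authors trimmed reads with fastp, aligned them with HISAT2 to mm10 and counted them with HTSeq, in versions not given in the sources used here, and deposited FPKM per gene. The labels name a SMARTER kit and the methods a VAHTS kit. For the Piezo1 experiment the authors also deposited a signal per group, the mean of size-factor-normalised reads. Their tables also hold the authors' fold changes with p and q values, which were not used. Whole reads were recovered from FPKM for 100.0% of genes (within 0.02 reads), and 98.8% to 99.7% of genes matched the deposited signal within 1e-06.

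Genes that reached 1 FPKM in 3 or more of the libraries compared (2 in the Piezo1 experiment) were tested on log2(FPKM + 1) by limma-trend (limma 3.58.1, R 4.3.3, robust eBayes) between the 2 groups compared, with Benjamini-Hochberg adjustment over all genes. A gene below 1 FPKM in all libraries of 1 group passes only through the other group, which fixes its direction, and the number of list genes tested varies accordingly. Genes were called at an adjusted p below 0.05 and an absolute difference above 1, and interaction terms at the adjusted p alone. FPKM depends on the other genes of a library, so each difference was also set against the median gene. Alternatives were a pseudocount of 0.1, no filter, rescaling by the median ratio, a replicate block, 1 fit over all libraries, edgeR 4.0.16, DESeq2 1.42.0, leaving out each library, and the adjusted p alone. The models were tested on simulated data. The genes, lists and tests were chosen with earlier results of these data known. All 10 genes were reported in each comparison, and of each list at most 4 called genes with the largest differences and a mean of at least 5 FPKM in the higher group. Promoter sequence is from RefSeq on GRCm38.p6.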

Additional observations from a re-analysis of the deposited data

Results flagged for a closer look

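For 7 genes the WT minus *Piezo1*-cKO difference in lung was set apart from that in PB by a test of the difference itself, the interaction term in limma over 8 libraries. Lung minus PB of this difference was 0.64 for *Nfkb1*, -0.76 for *Nfkb2*, -0.47 for *Rel*, -0.42 for *Nfkbia*, -0.29 for *Nfkbie*, -0.60 for *Nfkbiz* and -0.93 for *Tnfaip3* on the log2 scale. For *Nfkb1*, *Nfkb2*, *Nfkbia*, *Nfkbiz* and *Tnfaip3* WT lay on one side of *Piezo1*-cKO in both PB libraries and on the other side in both lung libraries, although in lung the sign for *Nfkb2*, *Nfkbia* and *Nfkbiz* turned with edgeR and DESeq2. Of all 7560 genes tested, 48.2% passed the same threshold. The share of all genes that switched sides in this way was not computed. The 4 groups hold 2 libraries each, too few for a test of single libraries that stand apart.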

How the results depend on the processing

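Counts of called genes among the 10 stayed within 1.5 times under the other pseudocount, no filter, rescaling, the replicate block, 1 fit, edgeR and DESeq2. The replicate numbers did not pair the samples (correlations of deviations -0.084 to 0.075), and with the replicate block the counts were again 9, 9 and 5 in the tissue comparison, 0 and 0 between genotypes, 9 and 9 for lung minus PB in the Piezo1 experiment, and 7 for the interaction, and by adjusted p alone *Nfkbie* in PB minus BM was lost (0.097). Leaving out 1 library at a time gave 8 to 9 genes in lung minus PB, 9 in lung minus BM, 4 to 5 in PB minus BM, 0 in both genotype comparisons, 9 in lung minus PB of WT and of *Piezo1*-cKO mice, and 6 to 7 interaction terms. By adjusted p alone PB minus BM gave 10 genes, WT minus *Piezo1*-cKO in lung 7 and in PB 9, and no interaction term (0) exceeded 1 as well.

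Signs turned for small differences, in this order of settings: rescaling, edgeR, DESeq2. *Nfkb1* lung minus BM became 0.37, 0.52 and 0.57, and *Nfkb1* lung minus PB in *Piezo1*-cKO mice 0.19, 0.24 and 0.27. WT minus *Piezo1*-cKO in lung became 0.024, 0.041 and 0.039 for *Nfkbia*, and 0.0058, 0.023 and 0.021 for *Nfkbiz*. *Nfkb2* turned in edgeR (0.014) and DESeq2 (0.012), and *Rela* without WT lung replicate 1 (-0.023) or *Piezo1*-cKO lung replicate 1 (-0.00062), with a range of -0.023 to 0.050 when 1 library was left out. The interaction became 0.048, 0.016 and 0.045 for *Relb* and 0.046, 0.051 and 0.081 for *Bcl3*, which was 0.0082 without *Piezo1*-cKO PB replicate 1 and -0.074 without replicate 2. These shifts follow the scaling, by the construction of these alternatives, or the smaller number of libraries. With 2 libraries a group in the Piezo1 experiment, the error of each library weighs heavily, and intervals cover counting and replicate spread only.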
